A study of Homo sapiens with 8 samples.

Results

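The integrin and laminin genes were followed through a SMAD3 ChIP-on-chip experiment on promoter arrays. A probe was taken as a member when its annotation named a gene with an integrin α (ITGA), integrin β (ITGB) or laminin (LAMA, LAMB or LAMC) symbol, and no measured value entered this choice. The rule found 1189 of 474411 probes and 37 of 17253 genes with a probe, and 26 of these were integrin genes and 11 were laminin genes. The scanner software marked 1 of these probes as an outlier, and it was left out, which gave 1188 member probes of 473007. LAMA1 was not analysed here. The annotation gave 33 genes a single transcription start and ITGB1, ITGB4, LAMA3 and LAMB3 more than 1, and 24 probes of ITGA7 were also annotated to another gene. Positions are distances from the annotated start, with negative values upstream.

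The study asked where SMAD3, the DNA-binding effector of TGFβ1 signalling, sits in lung epithelial cells before and after stimulation. The chromatin came from A549, an established line from a human lung adenocarcinoma, so that both groups rest on 1 line. Unstimulated cells received no TGFβ1. Stimulated cells were given TGFβ1 (2 ng/ml). The longest time named is 2 h, while the study's results and figure legends give a shorter one for these binding data. Each condition had 2 replicates that the labels call biological, and each replicate was spread over 2 slides with different probes, 8 arrays in all. On every array DNA from the SMAD3 IP carried Cy5 and DNA from a mock IP with an anti-FLAG antibody carried Cy3, both after amplification by linker PCR. A log2 ratio above 0 means more SMAD3 IP than mock IP signal at a probe, relative to the median probe of the array. Since nothing describes how separate the replicate cultures were, the p-values measure the spread between these samples, which may be partly technical.

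Integrins are transmembrane receptors made of an α and a β subunit, and the pair decides which matrix protein is bound. Laminins are basement membrane proteins built from an α, a β and a γ chain, and epithelial cells hold on to them mainly through integrins that contain the α3, α6, β1 and β4 subunits. In lung epithelium the integrins that recognise the RGD tripeptide, above all αvβ6 and αvβ8, also release TGFβ1 from its latent complex, which ties this receptor family to the pathway that SMAD3 serves.

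Promoter sequences of the RefSeq annotation on GRCh38.p14 were found for 26 of the 37 genes. The upstream 250 bases of 4 of them are printed. ITGA2 and ITGA6 are shown because their promoter means rose after TGFβ1, and ITGB1 and LAMC1 because probes close to a start lay on the SMAD3 side in both conditions. Capitals mark CAGAC, the short SMAD-binding element. The sequences run 5′ to 3′ and end at the base before the RefSeq start. They cover chr5:52989102-52989351 (plus strand) for ITGA2, chr2:172427086-172427335 (plus strand) for ITGA6, chr10:32958231-32958480 (minus strand) for ITGB1 and chr1:183023170-183023419 (plus strand) for LAMC1. The array annotation names no build, so where its probes fall within these stretches was not determined.
ITGA2: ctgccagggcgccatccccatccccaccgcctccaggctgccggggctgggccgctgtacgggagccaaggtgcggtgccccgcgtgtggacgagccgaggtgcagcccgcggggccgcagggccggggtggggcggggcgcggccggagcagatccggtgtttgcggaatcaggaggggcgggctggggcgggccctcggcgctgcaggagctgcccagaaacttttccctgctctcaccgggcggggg
ITGA6: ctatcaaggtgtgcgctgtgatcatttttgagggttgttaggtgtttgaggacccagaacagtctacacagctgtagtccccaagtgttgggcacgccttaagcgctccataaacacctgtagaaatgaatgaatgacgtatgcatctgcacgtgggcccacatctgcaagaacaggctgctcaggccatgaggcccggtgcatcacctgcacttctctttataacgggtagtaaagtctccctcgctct
ITGB1: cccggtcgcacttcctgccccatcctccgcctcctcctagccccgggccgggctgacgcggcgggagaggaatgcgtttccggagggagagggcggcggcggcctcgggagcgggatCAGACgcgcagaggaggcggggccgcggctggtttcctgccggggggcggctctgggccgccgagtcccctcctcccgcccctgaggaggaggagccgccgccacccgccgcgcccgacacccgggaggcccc
LAMC1: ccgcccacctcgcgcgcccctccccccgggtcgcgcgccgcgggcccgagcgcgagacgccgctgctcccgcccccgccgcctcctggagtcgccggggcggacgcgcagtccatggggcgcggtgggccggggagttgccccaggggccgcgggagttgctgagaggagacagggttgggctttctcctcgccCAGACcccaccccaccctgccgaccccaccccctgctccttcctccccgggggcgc

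The printed stretch of ITGA6 was 50.8% G and C, while those of ITGA2, ITGB1 and LAMC1 were 76.4%, 78.4% and 79.6%. ITGB1 and LAMC1 each held 1 CAGAC and ITGA2 and ITGA6 held 0. CAGAC and its reverse complement GTCTG were searched over 300 bases, from 250 upstream to the bases just after the start. Either was in 14 of the 26 member promoters (53.8%), against 45.1% of 27305 promoters. The palindromic SMAD-binding element GTCTAGAC was in 0 of the 26 and in 0.209% of all. Of the GC-rich elements, searched on both strands, GGCGC was in 57.7% of the member promoters and 48.3% of all. The element GGCCG was in 61.5% and 48.6%. TGANTCA, an AP-1 element, was in 7.69% and 7.72%. The median GC content was 61.2% for the members and 57.6% for all promoters. These GC-rich elements can overlap each other, and a match describes letters, not binding.

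Replicates of a condition resembled each other closely at the member probes, and the conditions did not. The correlation of the log2 ratio over the 1188 probes was 0.896 between the unstimulated and 0.891 between the stimulated replicates, and it lay between 0.175 and 0.232 across conditions. The mock IP signal alone correlated at 0.956 and 0.972 within and at 0.640 to 0.675 across conditions, and the SMAD3 IP signal at 0.952 and 0.954 within and at 0.816 to 0.833 across. These correlations are across probes, which share arrays and are not independent. The mock IP, the reference of every ratio, thus correlated less across conditions than the SMAD3 IP. A condition and the preparation of its chromatin and mock DNA cannot be told apart here. Array medians before centring lay between 0.24 and 0.72 on the log2 scale, and 459 member probes (38.6%, against 34.0% of all) were well above background in both channels on all 4 arrays of their slide. Such probes are called measured. The scanner software marked 0 member spots as saturated.

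At single probes the members moved about as often as the rest of the array. After TGFβ1 the log2 ratio was higher at 122 member probes (10.3%) and lower at 161 (13.6%), with an adjusted p under 0.05 by limma, against 10.5% and 12.4% of all probes. Among measured probes the counts were 91 higher (19.8%) and 103 lower (22.4%) of 459, against 19.0% and 25.5%. In unstimulated cells 98 member probes (8.25%) lay on the SMAD3 side and 234 (19.7%) on the mock side, against 8.92% and 17.4% of all. After TGFβ1 these counts were 93 (7.83%) and 261 (22.0%), against 8.22% and 18.5%. The integrin and laminin genes as a group thus stood near the background on each of these counts.

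Averaged over the promoter, most members lay on the mock side and few on the SMAD3 side. A promoter mean is the mean log2 ratio of the probes from -2000 to 800 bp of a start, and 36 members had the required 4 probes, while ITGA1 had 2. In unstimulated cells 4 members (11.1%) were above 0 and 20 (55.6%) below it, against 20.7% and 38.5% of 15961 genes. After TGFβ1 3 members (8.33%) were above and 20 (55.6%) below, against 16.6% and 42.9%. The change between conditions was called higher for 5 members (13.9%) and lower for 7 (19.4%), against 20.4% and 27.5%. The members' median was -0.32 in unstimulated cells and -0.33 after TGFβ1, against -0.12 and -0.18 over all genes. These levels depend on where 0 is set. Without centring 15 members were above and 9 below 0 in unstimulated cells and 18 and 8 after TGFβ1, and after loess 11 and 11, and 15 and 11. With normexp background correction 3 members rose and 0 fell. The 4 genes above 0 in unstimulated cells were ITGA3, LAMA3, LAMC1 and LAMC3, and the 3 after TGFβ1 were ITGA2, ITGA3 and ITGA9.

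**Figure D1:**
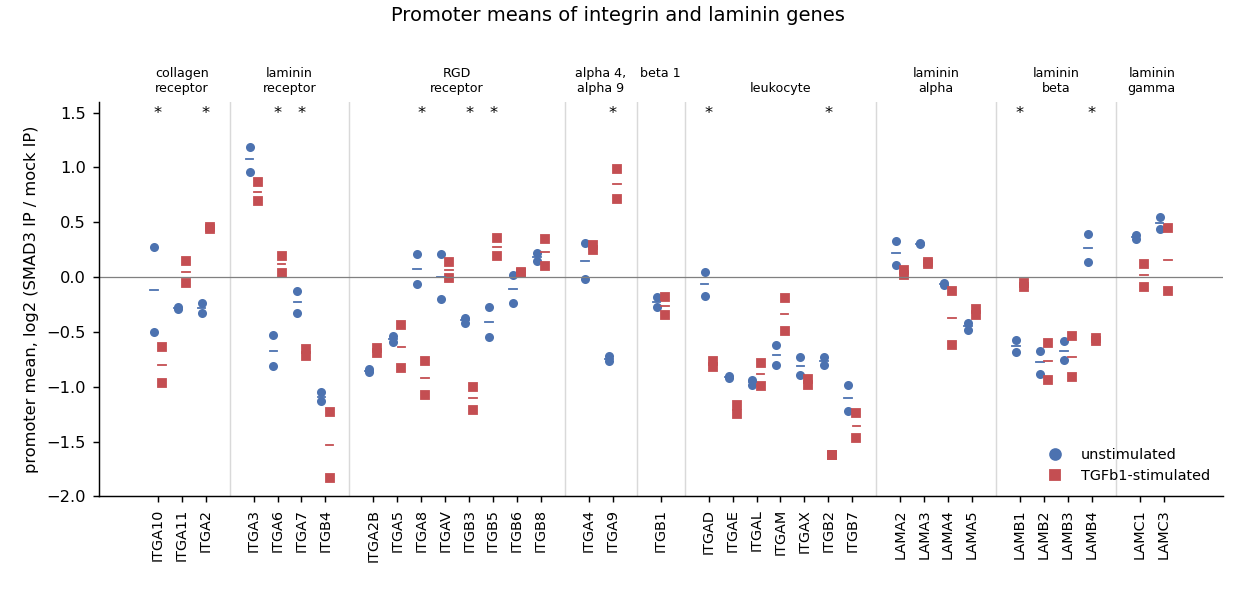
Promoter mean (vertical axis, log2 scale, SMAD3 IP over mock IP) for the genes with a mean that are reported singly, by receptor or chain class; circles are the 2 unstimulated and squares the 2 stimulated replicates, short lines their means, and asterisks mark the 12 genes whose change passed. ITGA3 is highest in unstimulated cells at 0.96 and 1.19, ITGA9 moves from below to above 0, and the leukocyte integrins lie below 0 in nearly every replicate.

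The collagen receptor subunits moved in different directions. ITGA2, the α subunit of the main epithelial collagen receptor, had a promoter mean of -0.24 and -0.33 in unstimulated cells and of 0.46 and 0.44 after TGFβ1, so the groups did not overlap. It rose by 0.73 (SE 0.13, adjusted p = 0.00203), and by 1.51 when only measured probes were averaged. ITGA10, a cartilage collagen receptor, fell from 0.27 and -0.50 to -0.64 and -0.97 (change -0.69, SE 0.24, adjusted p = 0.045), with 1 measured probe in the window. That call was lost without unstimulated replicate 1 (-0.30) and without either stimulated replicate (-0.85 and -0.52). ITGA11, a fibroblast collagen receptor, was called below 0 in unstimulated cells (-0.29 and -0.27), but was above it after loess (0.23) and without centring (0.29). It had -0.05 and 0.15 after TGFβ1, a change of 0.33 with an adjusted p of 0.0821. Over measured probes only, the change of ITGA11 was 0.87 (adjusted p = 0.000836).

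Close to the start of ITGA2 the probes fell into steady and moving ones. At -324 bp the log2 ratio was 1.63 and 1.64 in unstimulated cells and 1.80 and 1.59 after TGFβ1, the same in both conditions within the replicate spread. At -147 bp it was 0.67 and 0.80 against 2.23 and 1.91, and at 645 bp it was 1.66 and 1.79 against 3.52 and 3.14. Both rose, by 1.33 (SE 0.17, adjusted p = 0.0195) and 1.61 (SE 0.18, adjusted p = 0.0167). Between them, at 211 bp, the ratio went from -3.96 and -3.72 to 0.94 and 1.70. There the mock IP intensity fell from 6851 and 15543 to 176 and 90, while the SMAD3 IP intensity was 518 and 1655 before and 447 and 452 after. ITGA11 also held SMAD3-side probes in both conditions, and at 75 bp its ratio was 0.96 and 1.28 before and 2.48 and 2.63 after TGFβ1.

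Among the laminin receptors ITGA3 carried the highest promoter mean of all 36 members in unstimulated cells. ITGA3 encodes the α3 subunit, which with β1 binds the laminins of epithelial basement membranes. Its promoter mean was 0.96 and 1.19 in unstimulated cells and 0.69 and 0.87 after TGFβ1, called above 0 in each (adjusted p = 4.39e-05 and 0.000266), and the change of -0.30 was not called (adjusted p = 0.137). Over measured probes only, the change was -0.50 (adjusted p = 0.0418). Averaged over all probes of the gene instead, ITGA3 had -0.67 and -0.09, so the sign depended on the window. With normexp its promoter means were 0.60 and 0.44, and neither was called (adjusted p = 0.287 and 0.382). The probe at 580 bp had log2 ratios of 3.93 and 4.13 before and 5.32 and 5.98 after TGFβ1, with no overlap. This rise of 1.62 (SE 0.29, adjusted p = 0.042) came with SMAD3 IP intensities of 3951 and 4825 before and 21594 and 87332 after. A neighbour at 447 bp changed by -1.16 (adjusted p = 0.0191), and one at 687 bp by 0.08 (adjusted p = 0.96).

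ITGA6, the α6 subunit of epithelial laminin receptors, rose in its promoter mean while one of its strongest probes fell. The mean went from -0.81 and -0.53 to 0.19 and 0.04 (change 0.79, SE 0.15, adjusted p = 0.00279). At -143 bp the ratio was 3.44 and 3.10 in unstimulated cells and 0.73 and 0.64 after TGFβ1, a fall of -2.59 (SE 0.17, adjusted p = 0.00567) in which the SMAD3 IP intensity went from 24484 and 35779 to 8853 and 9003. At 117 bp it stayed at 2.33 and 2.12 against 2.68 and 2.29, and at 460 bp at 1.23 and 1.30 against 1.17 and 1.1. The largest rise in its window was at -1385 bp (6.46), where the mock IP intensity went from 11039 and 18836 to 79 and 64. Averaged over all probes of the gene, ITGA6 changed by 0.02 (adjusted p = 0.904). ITGA7, the laminin receptor subunit of muscle, fell in its promoter mean from -0.33 and -0.13 to -0.66 and -0.72 (change -0.46, adjusted p = 0.0256). The ITGA7 call was lost over measured probes only (-0.33), under loess (-0.32) and without centring (-0.33), and also without unstimulated replicate 2 (-0.36) or either stimulated replicate (-0.49 and -0.43). ITGB4, the partner of α6 in hemidesmosomes, lay on the mock side in both conditions, at -1.05 and -1.13 and then -1.83 and -1.23.

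ITGB1, the β subunit shared by most matrix receptors, had 3 annotated starts, and each probe was annotated to 1 of them. The other starts lie 376 and 22712 bp from the first. The 6 window probes annotated to the start 376 bp downstream averaged 1.28 and 1.15 in unstimulated cells and 0.65 and 0.61 after TGFβ1. The 12 annotated to the first start averaged -1.08 and -1.05 and then -0.32 and -0.59. The windows of both starts overlap, so this split follows the annotation and gives no window mean of either start alone. The pooled promoter mean of -0.18, -0.27, -0.18 and -0.35 combined both signs. Measured from the start at 376 bp, the probe at -199 bp had ratios of 3.62 and 3.60 before and 2.11 and 1.80 after. The next one, at -60 bp, had 2.00 and 1.92 before and 3.44 and 3.04 after. The first fell by -1.65 (SE 0.15, adjusted p = 0.0107) and the second rose by 1.28 (SE 0.18, adjusted p = 0.0272), although they lie 138 bp apart, which is less than a sheared fragment of 200 to 700 bp. Single probes at the other starts were on the SMAD3 side too. At -74 bp of the first start the ratio was 1.05 and 0.94 before and -1.91 and -2.23 after TGFβ1 (change -3.07, adjusted p = 0.00417), and at -3416 bp of the start farthest away it was 1.58, 1.39, 1.71 and 1.67.

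The RGD receptors held the largest rise of any measured member probe, at ITGB6. ITGB6 encodes the epithelial β6 subunit that, with αv, activates latent TGFβ1. The probe at -5408 bp had log2 ratios of -2.33 and -3.51 in unstimulated cells and 5.69 and 5.77 after TGFβ1. It rose by 8.65 (SE 0.48, adjusted p = 0.00443), and the SMAD3 IP intensity went from 213 and 162 to 105409 and 91347, a 528-fold increase, while the mock IP intensity was 906 and 1316 before and 1538 and 1078 after. Its upstream neighbour at -5610 bp rose as well, from 1.33 and 1.55 to 5.25 and 4.73 (change 3.55, SE 0.24, adjusted p = 0.00615). The neighbour on the other side, at -5220 bp, changed by 0.40 (adjusted p = 0.645) and was not measured. The peak height, the fold of SMAD3 IP over mock IP at the centre of a peak fitted to all probes of a gene, was 1.11 for ITGB6 in unstimulated cells and 46.9 after TGFβ1. This region lies outside the promoter window, in which ITGB6 had 0 measured probes and a change of 0.15 (adjusted p = 0.422).

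ITGA5, the α subunit of the fibronectin receptor, had 6 of its 44 probes called higher and 8 called lower, against 10.5% and 12.4% of all probes. Among the measured probes of ITGA5 1 rose. At -540 bp the ratio was 0.69 and 1.20 in unstimulated cells and 8.40 and 7.60 after TGFβ1, the highest of the measured members in that condition. The SMAD3 IP intensity went from 212 and 207 to 202058 and 208434 (978-fold) and the mock IP intensity from 88 and 61 to 362 and 670. The rise was 7.05 (SE 0.39, adjusted p = 0.00436), and the adjusted p was 0.0528 and 0.0522 without unstimulated replicates 1 and 2 (changes 6.80 and 7.31). The measured neighbours on both sides did not follow, with 0.20 at -792 bp and -0.12 at -410 bp (adjusted p = 0.603 and 0.928). Just downstream of the start measured probes fell, by -5.05 at 260 bp and -2.85 at 600 bp (adjusted p = 0.0181 and 0.0271), and the mock IP moved more at both. The promoter mean of ITGA5 was -0.59, -0.54, -0.83 and -0.44, but after loess (0.05 and 0.04) and without centring (0.01 and 0.07) it lay just above 0 in both conditions.

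ITGA2B, the platelet αIIb subunit, had 4 of its 35 probes called higher and 9 called lower, against 10.5% and 12.4% of all probes. These called probes were all measured, and the largest rise of ITGA2B lay far from the start. At 26846 bp, a position annotated as downstream of the gene, the ratio went from -1.54 and -1.16 to 5.54 and 5.74 (change 6.99, SE 0.20, adjusted p = 0.00214). The SMAD3 IP intensity was 2190 and 3554 before and 295577 and 296772 after, 106-fold higher. Its measured neighbour 99 bp away changed by 0.25 (adjusted p = 0.629). Near the start the ratio rose by 4.24 at -412 bp and by 1.38 at 65 bp (adjusted p = 0.0104 and 0.0299), where the mock IP moved more. Called falls lay beside these rises, by -1.30 at -580 bp, where the mock IP moved more, and by -1.48 at 171 bp, where the SMAD3 IP did. At 24228 bp another probe was on the SMAD3 side in all 4 replicates, with 3.35, 3.25, 4.30 and 4.03. The promoter mean of ITGA2B was called below 0 in both conditions, at -0.84 and -0.87 and then -0.65 and -0.69, and without centring it was 0.04 after TGFβ1.

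**Figure D2:**
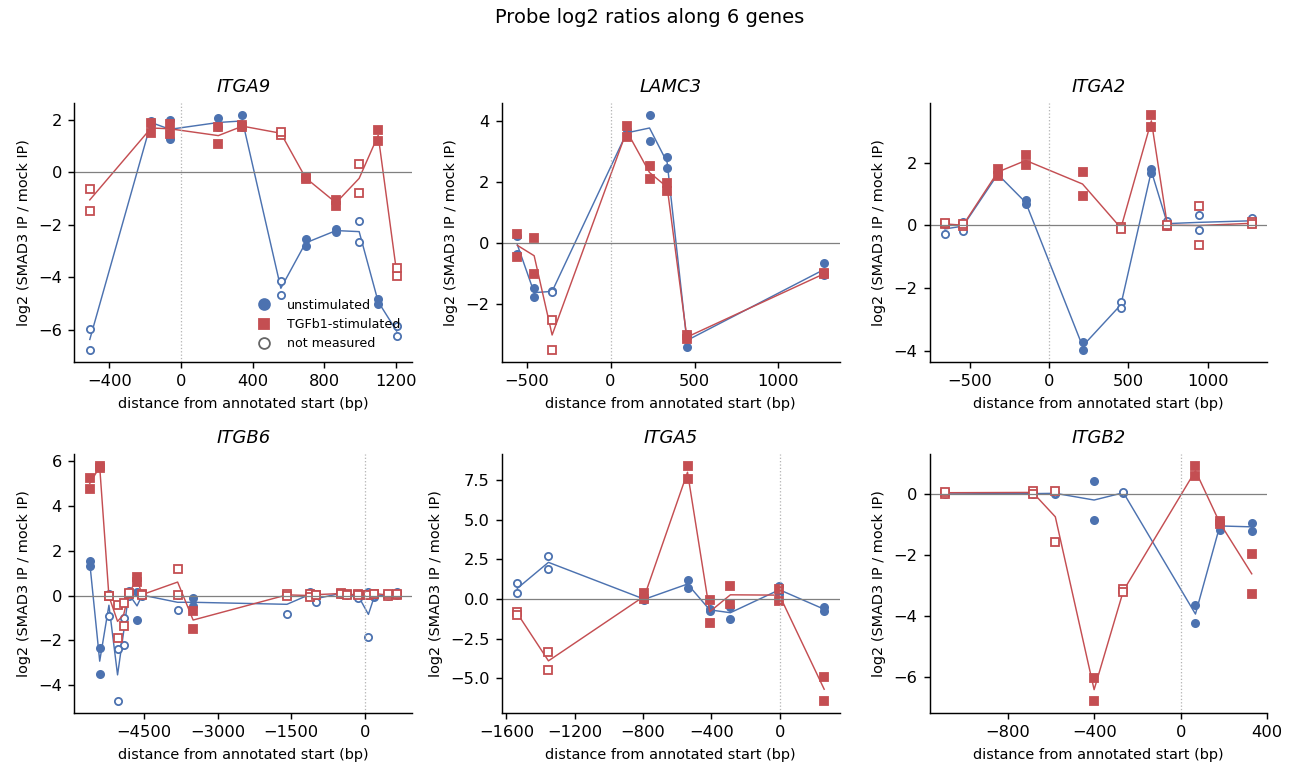
Log2 ratio at each probe (vertical axis, SMAD3 IP over mock IP) against distance from the annotated start in bp for ITGA9, LAMC3, ITGA2, ITGB6, ITGA5 and ITGB2; circles are unstimulated and squares stimulated replicates, open symbols are probes that were not measured, and lines join the means. ITGB6 at -5408 bp and ITGA5 at -540 bp stand at 5.69 to 8.40 after TGFβ1, while ITGA9 from -167 to 343 bp and LAMC3 at 96 bp keep their level in both conditions.

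ITGAV and ITGB8 had promoter means near 0 in both conditions, and that of ITGB5 rose. ITGB5, whose product pairs with αv to bind vitronectin, rose in its promoter mean from -0.27 and -0.55 to 0.36 and 0.19 (change 0.68, SE 0.15, adjusted p = 0.00623), and without stimulated replicate 1 the change of 0.60 had an adjusted p of 0.064. At -544 bp the ratio of ITGB5 went from -1.19 and -1.87 to 3.31 and 3.31 as the mock IP intensity fell from 32552 and 41126 to 770 and 762. ITGAV, the αv subunit common to this class, had promoter means of 0.21 and -0.20 and then 0.14 and -0.01. Its probe at -264 bp was on the SMAD3 side throughout, at 1.81, 1.38, 2.17 and 1.76. ITGB8, the β8 subunit, had 0.22, 0.15, 0.35 and 0.10 for its promoter mean and 3.03, 2.57, 2.54 and 2.54 at -154 bp.

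ITGA8 and ITGB3 fell in their promoter means. ITGA8, a receptor subunit of mesenchymal cells, went from 0.21 and -0.06 to -0.77 and -1.08 (change -1.0, SE 0.17, adjusted p = 0.00122). All 3 called window probes of ITGA8 moved more in the mock IP. At -1423 bp, a probe not measured in every replicate, the mock IP intensity was 106 and 156 before and 24997 and 25131 after TGFβ1. ITGB3, the platelet and endothelial β3 subunit, went from -0.42 and -0.37 to -1.21 and -1.0 (change -0.70, SE 0.14, adjusted p = 0.00353). Over measured probes only, both calls were lost, with changes of -0.25 (adjusted p = 0.295) for ITGA8 and -0.06 (adjusted p = 0.791) for ITGB3.

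ITGA9 showed the largest rise of a promoter mean, and ITGA4 showed none that passed. ITGA9 encodes a receptor subunit for tenascin and osteopontin. Its mean was -0.72 and -0.77 in unstimulated cells and 0.99 and 0.71 after TGFβ1, a rise of 1.6 (SE 0.15, adjusted p = 4.69e-05). Over measured probes only the change was 0.32 (adjusted p = 0.174). The probes nearest to the start had no called change. They were at -167 bp (1.83, 1.96, 1.89 and 1.5), -62 bp (2.00, 1.28, 1.85 and 1.48), 208 bp (2.07, 1.74, 1.73 and 1.08) and 343 bp (2.19, 1.72, 1.82 and 1.71). They lay on the SMAD3 side in both conditions, and the groups overlapped at all but 208 bp. The probes that rose flanked them, as at -509 bp, not measured in every replicate, where the ratio went from -6.77 and -5.97 to -0.63 and -1.47 while the mock IP intensity went from 70432 and 97101 to 157 and 115. The 3 called window probes of ITGA9 all moved more in the mock IP. ITGA4, a receptor subunit for VCAM1 and fibronectin, had promoter means of 0.31, -0.02, 0.25 and 0.29.

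The leukocyte integrins, which serve adhesion and migration of blood cells, lay on the mock side. In unstimulated cells 6 of the 7 promoter means (all but ITGAD) were called below 0, against 38.5% of all genes, and after TGFβ1 all 7 were, against 42.9%. After TGFβ1 they ran from -0.34 for ITGAM, which was 0.11 after loess and 0.36 without centring, to -1.62 for ITGB2. With normexp none of these genes was called in unstimulated cells, and only ITGAE and ITGAX were called below 0 after TGFβ1. Without centring ITGAD was above 0 in unstimulated cells (0.51, adjusted p = 0.00152), and ITGAM (-0.14) and ITGB2 (-0.20) were not called. After TGFβ1 ITGAD (-0.09) and ITGAL (-0.18) were not called without centring. The means of the other genes were -0.98, -1.22, -1.24 and -1.47 for ITGB7, the gut-homing β7 subunit, and -0.90, -0.92, -1.25 and -1.17 for ITGAE. They were -0.94, -0.98, -0.78 and -0.99 for ITGAL and -0.89, -0.73, -0.98 and -0.93 for ITGAX, partners of β2. Only 1 of their 184 probes (0.543%), in ITGAL at 1537 bp, was on the SMAD3 side in both conditions, against 4.27% of all probes. ITGB2, the common β2 subunit, fell in its promoter mean from -0.73 and -0.80 to -1.62 and -1.62 (change -0.86, adjusted p = 0.000844), and over all its probes the change was -0.08 (adjusted p = 0.489). ITGAD fell from -0.17 and 0.05 to -0.82 and -0.77 (change -0.74, adjusted p = 0.00278), and its probe at -301 bp lost SMAD3 IP signal, from 2857 and 4046 to 909 and 1048. ITGAE, the αE subunit of intraepithelial lymphocytes, held the largest fall of any measured member probe. At -1575 bp its ratio went from 3.12 and 2.86 to -7.43 and -6.97 (change -10.19, SE 0.23, adjusted p = 0.00203). There the mock IP intensity was 59 and 74 before and 36733 and 44566 after, 609-fold higher, and the SMAD3 IP intensity was 772 and 791 before and 352 and 569 after.

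Of the laminin γ chains, LAMC3 and LAMC1 kept SMAD3-side signal at their starts. LAMC1 encodes the γ chain of most laminins. At -186 bp its ratio was 2.70 and 2.82 in unstimulated cells and 2.59 and 2.21 after TGFβ1, and the fitted peak was centred there in all 4 replicates with heights of 3.36, 3.61, 2.83 and 2.30. LAMC3, a γ chain with a narrower range of tissues, had 3.50, 3.70, 3.84 and 3.48 at 96 bp, and its peak was centred there in all 4 replicates with heights of 4.76, 4.76, 3.73 and 2.83. Its next probes stayed high, with 4.19 and 3.33 before and 2.51 and 2.10 after TGFβ1 at 232 bp, and at 454 bp the sign turned, with -3.41, -3.01, -3.04 and -3.15. At 96 bp the SMAD3 IP intensity was 21835 in unstimulated replicate 1 and 324832 in replicate 2, and the mock IP intensity 1636 and 17829, so that the ratio was steadier than either channel. The promoter mean of LAMC3 was 0.55 and 0.44 before and 0.45 and -0.13 after, and that of LAMC1 0.35 and 0.38 before and 0.12 and -0.09 after. In unstimulated cells the call of LAMC1 was lost without unstimulated replicate 1 (0.38) or 2 (0.35).

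Among the laminin α chains none of the 4 promoter means changed with an adjusted p under 0.05, while single probes moved far. Over measured probes only, LAMA4 fell by -0.83 (adjusted p = 0.0051). LAMA3, the α chain of the laminin that anchors epithelia, had promoter means of 0.31 and 0.30 before and 0.12 and 0.14 after TGFβ1. Its call in unstimulated cells was lost without replicate 1 (0.30) or 2 (0.31). The gene has an inner start 183444 bp from the first, and at -1517 bp from it the ratio was 0.97 and 1.74 before and 7.87 and 5.8 after TGFβ1. This was a rise of 5.48 (SE 0.88, adjusted p = 0.0341), with SMAD3 IP intensities of 366 and 456 before and 312357 and 356055 after, 817-fold higher. Its neighbours, at -1711 and -1206 bp, were not measured and changed by -0.74 and 0.20 (adjusted p = 0.393 and 0.36). At 2467 bp the stimulated replicates disagreed, with 0.42 and 8.30. The peak fitted in stimulated replicate 1 was centred at -1517 bp with a height of 7.46, and that in replicate 2 at 2467 bp with a height of 223. At -7 bp of the upstream start LAMA3 stayed on the SMAD3 side, with 1.34, 1.28, 0.95 and 0.99. The 8 window probes annotated to that start averaged 0.19 and 0.28 before and 0.11 and -0.14 after TGFβ1. At 141 bp the ratio was 1.07 and 1.07 before and 0.45 and 0.53 after TGFβ1, a fall of -0.58 (adjusted p = 0.0394). At 122 bp of the inner start a measured probe fell further, by -2.96. There the SMAD3 IP signal changed by -2.94 and the mock IP signal by -0.18 on the log2 scale.

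LAMA5, the main α chain of adult epithelial and vascular basement membranes, had probes upstream of its start that lost SMAD3 IP signal and others that gained it. At -679 bp the ratio went from 3.19 and 3.0 to -2.72 and -2.97 (change -5.94, SE 0.16, adjusted p = 0.00209), and the SMAD3 IP intensity from 70498 and 70350 to 2017 and 2278, 32.9-fold lower. Its neighbour at -573 bp fell too, by -3.20 (adjusted p = 0.00299), while that at -823 bp rose by 1.37 (adjusted p = 0.00911). A second site, at -5094 bp, was chosen after its values were seen. There the ratio went from 3.29 and 3.12 to -3.05 and -2.28 and the SMAD3 IP intensity from 62920 and 60657 to 1473 and 3204. Rises in which the SMAD3 IP moved more lay between these sites, by 3.45 at -1946 bp, 1.85 at -1479 bp and 1.31 at -1066 bp (adjusted p = 0.00229, 0.0103 and 0.00897). Called falls at measured probes lay among them. They included -6.06 at -3154 bp and -1.31 at -1618 bp, where the mock IP moved more, and -1.74 at -2533 bp, where the SMAD3 IP did. Near the start, at 232 bp, LAMA5 stayed at 2.54, 2.69, 2.16 and 2.31. Its promoter mean was -0.48, -0.42, -0.29 and -0.35, called below 0 in both conditions, but was above it after loess (0.19 and 0.50) and without centring (0.12 and 0.38). LAMA2, the α chain of muscle laminin, fell at 85 bp from 3.19 and 3.06 to 1.71 and 1.68 (change -1.43, SE 0.11, adjusted p = 0.00737) and remained on the SMAD3 side. LAMA4, an α chain of vascular laminins, had the highest ratio of the measured members in unstimulated cells, at -4623 bp, with 4.58 and 4.61, and 0.24 and -1.41 after TGFβ1. Its neighbours at -4809 and -4497 bp changed by 0.82 and 0.50 (adjusted p = 0.593 and 0.222). With normexp the ratio at -4623 bp in unstimulated cells was 1.01 and no longer called (adjusted p = 0.825). The promoter mean of LAMA4 was called below 0 after TGFβ1 (-0.13 and -0.62), but without stimulated replicate 2 the call was lost (-0.13), and without centring it was 0.14.

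The laminin β chains split into a rise and a fall. LAMB1, the β chain found in most tissues, rose in its promoter mean from -0.68 and -0.57 to -0.09 and -0.05 (change 0.55, SE 0.13, adjusted p = 0.00929), and without unstimulated replicate 1 the change of 0.50 had an adjusted p of 0.0594. All 4 called window probes of LAMB1 moved more in the mock IP. At 39 bp LAMB1 was on the SMAD3 side at 0.53, 0.60, 0.40 and 0.46. LAMB4, a chain whose function is little known, fell from 0.14 and 0.39 to -0.58 and -0.56 (change -0.84, SE 0.15, adjusted p = 0.0016), with 0 of its 16 window probes measured. LAMB2, a β chain of muscle and kidney, and LAMB3, the β chain of the epithelial anchoring laminin, were on the mock side in both conditions. LAMB2 had -0.67, -0.88, -0.60 and -0.94 and LAMB3 had -0.58, -0.76, -0.54 and -0.91, with overlapping groups.

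The signal that held in both conditions lay close to starts. In all, 51 member probes (4.29%) were on the SMAD3 side in both conditions, against 4.27% of all probes, and 50 of the 51 were measured. From -500 to 800 bp of a start this held for 40 of 260 member probes (15.4%), against 12.0% of all probes there. That window held 78.4% of the 51, against 61.9% of all 20192 such probes, although 21.9% of member probes and 22.0% of all probes lie in it. By another measure, a ratio above 0 in all 4 replicates, the members did not exceed the rest. Within 500 bp of a start this held for 52 of 211 member probes (24.6%), against 25.6% of all probes there. The 51 fell in 22 genes, 16 of them with 2 or more, and 15 genes had none. ITGA9, ITGA11 and LAMB1 had 4 each. The change between conditions was called higher at 9 of the 51, lower at 6 and not called at 36. Of all measured probes 19.0% were called higher and 25.5% lower. The share among all probes on the SMAD3 side in both conditions was not worked out, so the count says nothing particular about the members. Of the 51, 46 (90.2%) were 45 bases long, the shortest length among member probes, against 32.7% of member probes. Among all probes on the SMAD3 side in both conditions 89.9% had that length, against 28.6% of all probes, and the part of probe length in these ratios was not tested.

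**Figure D3:**
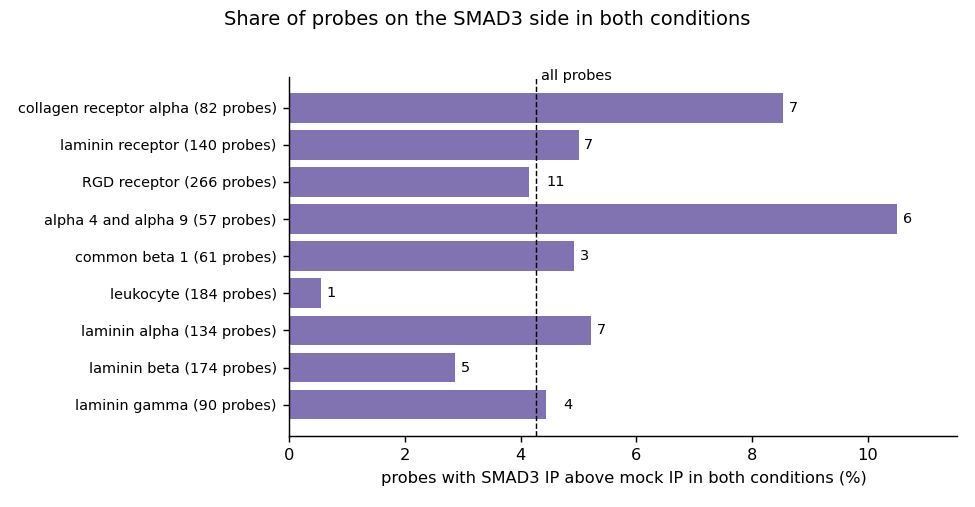
Percentage of probes with SMAD3 IP above mock IP in both conditions (horizontal axis) by class of gene, with the number of such probes at the end of each bar and the share of all probes, 4.27%, as the dashed line. Collagen receptors (8.54%) and the α4 and α9 subunits (10.5%) reach highest and the leukocyte integrins (0.543%) lowest; classes hold 57 to 266 probes of few genes, and no test was made between them.

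Peaks fitted over whole genes were about as frequent as elsewhere. A height over 1.5 in both replicates was found for 27 of 36 members in unstimulated cells and for 26 (72.2%) after TGFβ1, against 67.2% and 62.2% of 16875 genes. A height over 3 was found for 11 (30.6%) and 8 (22.2%), against 31.7% and 25.0%. The peak had the same centre within 150 bp in all 4 replicates for 6 members (16.7%), against 14.7% of all genes, and these were ITGA2B, ITGA7, ITGA8, LAMA2, LAMC1 and LAMC3. ITGA10 had heights of 181 and 133 in unstimulated cells at 18770 bp and of 1.00 and 1.74 after TGFβ1.

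In the changes between conditions the mock IP moved more often than the SMAD3 IP. Of the 91 measured member probes that rose, the SMAD3 IP signal moved more at 31 (34.1%), against 43.7% of all measured probes that rose. Of the 103 that fell it moved more at 38 (36.9%), against 37.8%. The median change of the channels, each scaled to the 75th percentile of its array, was 0.38 for the SMAD3 IP and -2.16 for the mock IP at the rises, and -0.42 and 1.37 at the falls. In the windows of the 12 genes whose promoter mean changed, 33 of 46 called probes moved more in the mock IP. ITGB6, ITGA5, ITGA2B and LAMA3 were among the sites where the SMAD3 IP moved more. A called probe had a neighbour within 300 bp called in the same direction at 93 of 186 measured member probes, against 45.1% over all genes.

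**Figure D4:**
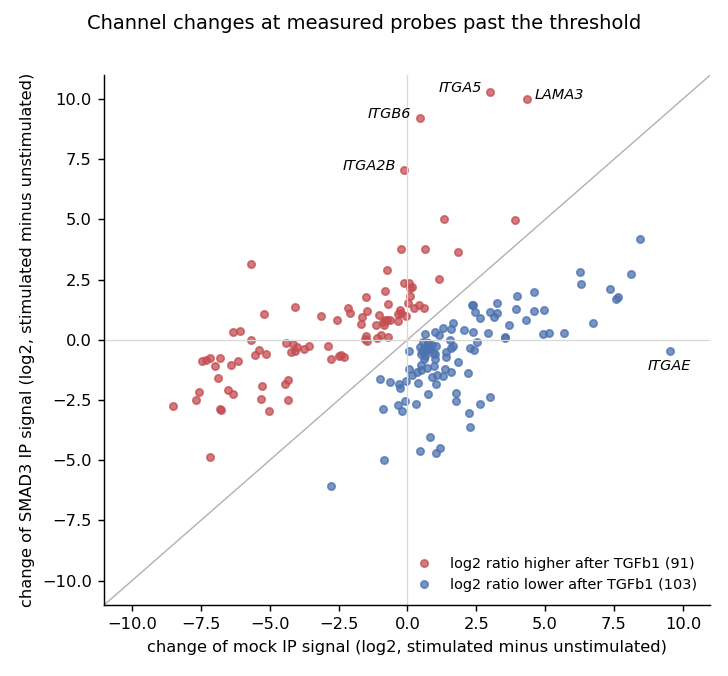
Change of the SMAD3 IP signal (vertical axis) against change of the mock IP signal (horizontal axis), both log2 and stimulated minus unstimulated, for the 194 measured member probes whose ratio changed; the grey line marks equal change. The 91 rises and 103 falls spread mostly along the mock IP axis, while ITGB6, ITGA5, LAMA3 and ITGA2B stand high on the SMAD3 IP axis and ITGAE far out on the mock IP axis.

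The 8 largest rises and the 8 largest falls at measured probes show the same split. Among the rises the SMAD3 IP moved more at 3 (ITGB6, ITGA5 and ITGA2B) and the mock IP at 5. Those 5 were ITGA3 at 960 bp (change 8.62), LAMB2 at 8944 bp (6.53), ITGA6 at -1385 bp (6.46), ITGA9 at 1100 bp (6.34) and ITGB2 at 7071 bp (6.25). At ITGA3 the mock IP intensity fell from 6963 and 7551 to 107 and 130, 61.7-fold lower. Among the falls the SMAD3 IP moved more at LAMB2 (1599 bp, -6.01) and LAMA5 (-679 bp), and the mock IP at 6. The 5 beside ITGAE were ITGB2 at -401 bp (-6.22), ITGB4 at -1805 bp (-6.08), LAMA5 at -3154 bp (-6.06), ITGAX at 2006 bp (-5.58) and ITGA7 at -513 bp (-5.56). When each replicate was left out in turn, 7 of the 16 kept an adjusted p under 0.05 throughout and 9 did not. With normexp 9 of the 16 were no longer called, and the change was 1.73 for ITGA3 at 960 bp and -4.17 for ITGAE at -1575 bp.

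**Figure D5:**
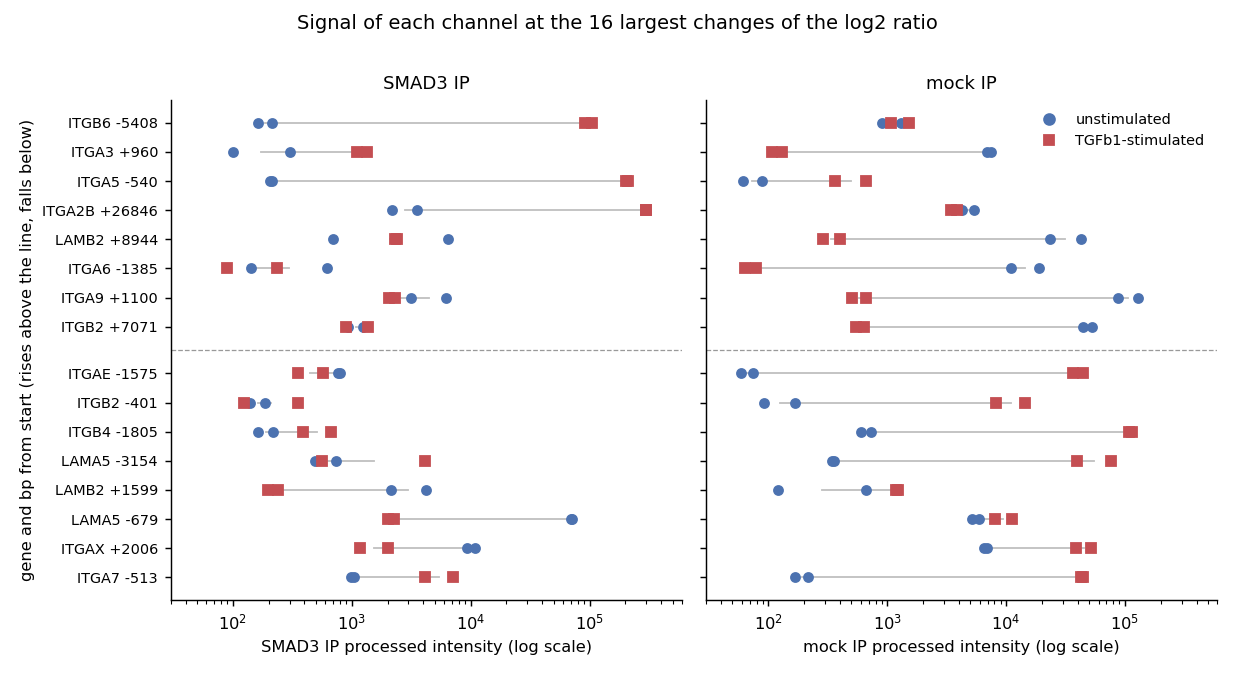
Processed intensity of the SMAD3 IP (left) and the mock IP (right) on logarithmic axes at the 8 largest rises (upper rows) and 8 largest falls (lower rows) of the log2 ratio; circles are unstimulated and squares stimulated replicates, and grey lines join the condition means. ITGB6, ITGA5 and ITGA2B separate on the SMAD3 IP side, and ITGAE, with 59 and 74 against 36733 and 44566, on the mock IP side.

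The partners of the integrins were described by the same promoter means. Of 13 matrix and cell surface ligands with a mean, 3 rose and 3 fell, and the median change was -0.10, while over all genes 20.4% rose and 27.5% fell with a median of -0.06. FN1, the fibronectin gene, rose from -1.18 and -0.94 to -0.24 and -0.13 (change 0.88, adjusted p = 0.00123), and ICAM1, the ligand of leukocyte integrins, fell from 0.75 and 0.62 to -0.07 and -0.04 (change -0.75, adjusted p = 0.00204). Of 22 adaptors, kinases and hemidesmosome genes 5 rose and 7 fell, with a median change of -0.13, against the same shares of all genes. Both groups are small, and their counts lie near these shares. PARVA, which links integrin-linked kinase to actin, rose from -2.48 and -2.31 to -0.19 and 0.10 (change 2.35, adjusted p = 6.75e-06). FERMT1, the epithelial kindlin that activates integrins, fell from 0.59 and 0.44 to -1.69 and -1.87 (change -2.29, adjusted p = 4.95e-06). For these partner genes neither the signal of each channel nor the alternative processing is given here.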

How the data were processed

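SMAD3 ChIP-on-chip was analysed for 4 replicates, 2 per condition, on 8 promoter arrays. Per spot, the authors deposited processed intensities of both dyes from Agilent Feature Extraction 9.5.1.1 (per the submitters' processing notes), background-subtracted and scaled per dye within the array, and a deposited series matrix held their log2 ratio, equal to that of the intensities within 3.13e-06. The array annotation names no genome build. Outlier probes (1404) were left out, slides were joined, and log2 ratios were centred on each array's median. Changes and differences from 0 were tested with limma 3.58.1 in R 4.3.3 (lmFit and eBayes, 2 groups, Benjamini-Hochberg over all probes or all promoters), which was tested on simulated data. Peaks, with a shape set by 200 to 700 bp fragments, were fitted by least squares in Python 3.11.15, without p-values. The members, gene lists and tests were chosen with earlier results of these data known. Named were ITGA3, ITGAV, ITGB1 and ITGB6 from the study's list, genes with roles in lung epithelium (1 of them is not reported here), members whose promoter mean passed in any contrast, the 8 largest rises and falls at measured probes (groups not overlapping, at most 2 a gene) and the 5 highest probes per condition (1 a gene). Other probes, peaks and partner genes given singly were chosen after their values were seen. Alternatives were normexp (offset 50), loess, no centring, measured probes only, a replicate block, separate slides, all probes of a gene, longer fragments and leaving out each replicate. No counts lie behind intensities, so the number of arrays and the signal over background limit precision.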

Additional observations from a re-analysis of the deposited data

How the results depend on the processing

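The 12 changes of promoter means and the 16 largest changes at probes kept their direction under every alternative run, but not always their call. After normexp background correction 9 of the 12 and 9 of the 16 were no longer called. Those probe changes were also smaller, as at ITGA3 at 960 bp (1.73 in place of 8.62), LAMB2 at 1599 bp (-1.4 in place of -6.01) and ITGAE at -1575 bp (-4.17 in place of -10.19). The 5 highest probes in unstimulated cells lost their call under normexp too. Their log2 ratios were then 1.01 for LAMA4, 1.12 for ITGA3, 1.16 for LAMC3, 2.37 for ITGB1 and 0.39 for ITGA2B. Leaving out each replicate in turn ended 4 and 9 of the 12 and 16 calls under at least 1 omission, loess 1 and 0, no centring 1 and 0, and averaging measured probes only 4 of the 10 means that could be fitted. Averaging all probes of a gene ended 4 of the 12. Replicate numbers 1 and 2 are shared by the conditions, but deviations of same-numbered samples correlated at 0.0209 over all probes and 0.075 over the members, so they were taken to share only a number. A replicate block changed 1 of these calls, LAMB2 at 8944 bp (adjusted p = 0.0597), and gave 5 members above 0 after TGFβ1 in place of 3.

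Counts moved most with background correction and centring. With normexp, 23 member probes rose and 29 fell, 4 and 15 lay on the SMAD3 and mock side in unstimulated cells and 27 and 64 after TGFβ1. For promoter means normexp gave 3 higher and 0 lower, 0 and 0 on the SMAD3 and mock side in unstimulated cells, 8 and 6 after TGFβ1, and 12 peaks over 1.5 in unstimulated cells. Without centring 327 probes in unstimulated cells and 468 after TGFβ1 lay on the SMAD3 side, and promoter means split 15 to 9 and 18 to 8. After loess 143 probes lay on the SMAD3 side after TGFβ1, and promoter means split 11 to 11 and 15 to 11. Measured probes only gave 8 and 11 promoter means on the SMAD3 side, and all probes of a gene gave 0 in unstimulated cells and 12 falls. Over measured probes only, 5 promoter means rose and 8 fell. Among these were changes not called over all window probes, of ITGA11 (0.87), LAMA4 (-0.83), LAMC1 (-0.61), ITGA3 (-0.50), ITGAX (-0.49) and ITGB1 (-0.46). With 1 replicate left out, member probes that rose numbered 54 to 83 and those that fell 52 to 120. On the SMAD3 side there were 36 to 81 in unstimulated cells and 59 to 71 after TGFβ1, and on the mock side 105 to 213 and 182 to 198. Without unstimulated replicate 1 there were 66 rises and 52 falls, and 36 and 126 probes on the SMAD3 and mock side in unstimulated cells. Without unstimulated replicate 2 these counts were 54, 53, 37 and 105. Without stimulated replicate 1 there were 72 rises, and without either stimulated replicate 59 probes lay on the SMAD3 side after TGFβ1. Promoter means rose for 4 to 5 genes and fell for 6 to 7, with 2 to 4 and 3 to 4 on the SMAD3 side and 16 to 20 in each condition on the mock side. Left without a replicate, the remaining sample was assumed to vary like the other condition. The cause of these shifts was not tested.

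The sign of 35 levels turned. In unstimulated cells, normexp gave 0.04 for ITGA11, 0.11 for ITGA2, 0.02 for ITGA5, 0.02 for ITGB3 and 0.41 for LAMA5. Loess gave 0.23 for ITGA11, 0.05 for ITGA5, 0.05 for ITGB3 and 0.19 for LAMA5. No centring gave 0.29 for ITGA11, 0.08 for ITGA2, 0.01 for ITGA5, 0.17 for ITGB3 and 0.12 for LAMA5. Measured probes only gave 0.94 for ITGA9 and 0.04 for LAMA5, and all probes of the gene -0.67 for ITGA3, -0.02 for LAMC1 and -0.28 for LAMC3. After TGFβ1, normexp gave 0.21 for ITGA5, 0.01 for ITGAM, 0.07 for ITGB1 and 0.20 for LAMA5, and loess 0.04 for ITGA5, 0.11 for ITGAM and 0.50 for LAMA5. No centring gave 0.04 for ITGA2B, 0.07 for ITGA5, 0.01 for ITGA7, 0.36 for ITGAM, 0.25 for ITGB1, 0.14 for LAMA4 and 0.38 for LAMA5. Measured probes only gave 0.19 for ITGA8 and all probes of the gene -0.09 for ITGA3. Of all member probes 38.6% were measured, which limits what the dimmer probes can show.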
